A study of Homo sapiens with 18 samples.

Results

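Metallothioneins are small cysteine-rich proteins that bind zinc and copper, and the genes of human MT1 and MT2 lie in 1 cluster on chromosome 16. The 8 genes described here are 6 metallothionein genes (MT2A, MT1E, MT1X, MT1F, MT1G and MT1M), the zinc-sensing transcription factor MTF1 and the zinc exporter SLC30A1, taken by symbol from the 60642 symbols of the count files. MTF1 and SLC30A1 are the other genes of zinc regulation in the set. Of the 8 genes, 5 passed the filter on low counts and were among the 15298 genes tested, while MT1F, MT1G and MT1M were at or near 0 and are reported as counts.

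When free zinc rises, MTF1 binds metal response elements (MREs) in the promoters of metallothionein genes and of SLC30A1 and activates them, so that zinc is bound in the cytosol or pumped out of it. Metallothionein genes also respond to glucocorticoids, and MT2A is a long-known target of the glucocorticoid receptor (GR), which binds glucocorticoid response elements (GREs). SLC30A1 is therefore given beside the metallothioneins, although its promoter holds fewer MRE cores than those of MT2A and MT1X, and its response need not be equal. The libraries hold no measurement of zinc, and the part of zinc in these results was not tested.

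RNA was from MDA-MB-231, an established human triple-negative breast cancer cell line, grown in high-glucose DMEM with 10% fetal bovine serum and moved before the experiments to medium free of phenol red with 10% charcoal-stripped serum. Cells were transfected with 25 nM of a non-specific siRNA (siNS), of an siRNA pool against HP1γ (siHP1g; HP1γ is a heterochromatin protein encoded by CBX3) or of a pool against the arginine methyltransferase PRMT5 (siPRMT5) for 48 h. Each was then given 100 nM dexamethasone (Dex), a synthetic glucocorticoid, or an equal volume of its solvent ethanol (Eth) for 8 h, which gives 6 groups of 3 biological replicates. All cells thus carried an siRNA, and the depletions are partial and transient.

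Each of the 18 libraries held between 8682992 and 12472381 counts, and levels are given as CPM (counts scaled by TMM to a common library size), mean ± SD of 3 replicates. PRMT5 fell from 249.2 ± 20.0 to 7.41 ± 1.17 CPM in siPRMT5 Eth and CBX3 from 255.5 ± 20.1 to 9.89 ± 0.657 CPM in siHP1g Eth. With Dex the targets stood at 10.5 ± 1.07 CPM for PRMT5 in siPRMT5 cells and 13.7 ± 2.23 CPM for CBX3 in siHP1g cells, against 239.2 ± 11.4 and 230.2 ± 10.3 CPM in siNS cells. The cell line markers VIM, CD44, AXL, NR3C1 and MSN were all expressed, and ESR1, PGR and CDH1 summed to 8, 2 and 1 counts over the 18 libraries. ERBB2 and EPCAM, listed as low, averaged 30.3 and 11.1 CPM. Of 4 markers of other cells, LUM was at 0, and PTPRC and PDGFRA were near 0 with 8 and 29 counts in all. PECAM1, the fourth, was low but rose with Dex in siNS cells from 1.29 ± 0.175 to 4.14 ± 0.339 CPM. The summed level of these 4 markers ranged from 1.32 to 1.66 CPM in siNS Eth and from 3.92 to 4.81 CPM in siNS Dex, and its part in the results was not tested. In bulk RNA, fewer cells of a type and less RNA per cell cannot be told apart.

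The promoters are printed for the members that frame the comparison, namely MT2A and MT1X, which rose with Dex, and the zinc exporter SLC30A1, which did not pass the test with Dex. The 250 bases before the start are from the RefSeq table (GRCh38.p14), read 5′ to 3′ on the strand of the gene, with every MRE core in capitals. The core was searched as TGCACNC or TGCGCNC on both strands, and a core on the other strand appears as its reverse complement. The table matched 4 of the 8 members, and MT1E, MT1F, MT1G and MT1M have no entry. MT2A is at chr16:56608334-56608583 on the plus strand, MT1X at chr16:56682220-56682469 on the plus strand, and SLC30A1 at chr1:211579162-211579411 on the minus strand.
MT2A: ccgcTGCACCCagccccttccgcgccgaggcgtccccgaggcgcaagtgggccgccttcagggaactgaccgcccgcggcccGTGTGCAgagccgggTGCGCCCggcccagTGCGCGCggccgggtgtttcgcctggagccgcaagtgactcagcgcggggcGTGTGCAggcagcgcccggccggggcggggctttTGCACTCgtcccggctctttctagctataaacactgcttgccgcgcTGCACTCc
MT1X: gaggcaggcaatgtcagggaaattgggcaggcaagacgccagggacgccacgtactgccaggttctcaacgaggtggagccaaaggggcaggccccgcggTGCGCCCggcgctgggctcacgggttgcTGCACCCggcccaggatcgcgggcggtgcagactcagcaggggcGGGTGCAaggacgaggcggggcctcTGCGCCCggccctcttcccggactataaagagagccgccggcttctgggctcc
SLC30A1: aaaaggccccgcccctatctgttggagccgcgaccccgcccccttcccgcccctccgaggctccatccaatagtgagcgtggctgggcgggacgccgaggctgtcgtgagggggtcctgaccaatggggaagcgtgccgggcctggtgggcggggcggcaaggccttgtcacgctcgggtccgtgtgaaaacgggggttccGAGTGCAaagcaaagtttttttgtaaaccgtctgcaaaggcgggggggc

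MT2A held 7 MRE cores, of which the nearest ended 2 bases and the farthest 240 bases before the start. MT1X held 4 cores between 47 and 144 bases before the start, SLC30A1 held 1 at 43 bases, and MTF1 held 0. At least 1 core was found in 24.8% of 35116 promoters of the same length, at least 4 cores in 0.37% and at least 7 in 0.0313%. These cores are matches of letters only and say nothing of binding.

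A GRE-like site was searched as GNACA followed after 3 bases by TGTNC, on both strands. It was in 0.327% of the 250-base promoters and in none of the 4 members that matched. In the 1000 bases before the GENCODE start on hg38 it was found in 1.23% of 20020 genes. MT2A had 1 such site, 253 bases before its start and just outside the printed promoter, and MT1X, MTF1 and SLC30A1 had 0. The full palindrome, AGAACA followed after 3 bases by TGTTCT, was in none of these 4 windows. The MT2A site is shown in capitals with 8 bases on either side, at chr16:56608311-56608339 on the plus strand.
MT2A GRE-like site: agcacccgGTACACTGTGTCCtcccgctg

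The 6 metallothionein members lie on chromosome 16 of hg38 (GENCODE 44). MT2A spans chr16:56608584-56609497, MT1E chr16:56625475-56627112, MT1M chr16:56632659-56633981, MT1F chr16:56657731-56660698 and MT1X chr16:56682470-56684196, all on the plus strand, and MT1G spans chr16:56666730-56668065 on the minus strand. MTF1 is on chromosome 1 (chr1:37809574-37859592, minus strand), as is SLC30A1 (chr1:211571568-211579161, minus strand). MT1X overlaps the unnamed gene ENSG00000259827 on its own strand and MTF1 overlaps ENSG00000235673 on the other strand, so their counts are uncertain to that extent. Whether the counting used strand is not given in the sources used here.

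Among the chromosome 16 metallothionein symbols with a row in the files, MT2A, MT1E and MT1X passed the filter, and each of the others had between 0 and 6 counts over the 18 libraries. MT1F had 6 counts over 18 libraries, at most 2 in a library, of which 4 were in siPRMT5 Dex, 1 in siPRMT5 Eth and 1 in siHP1g Dex. MT1G and MT1M had 0 counts in all 18 libraries, and a limit of 3 counts corresponds to at most 0.352 CPM in a library (counting error only). Of 17 other symbols listed with the metallothioneins, 15 had a row. Among these, MT1A, MT1B, MT1H, MT1HL1, MT1L, MT1CP, MT1DP, MT2P1, MT3 and MT4 were at 0 in every library, MT1JP had 1 count and MT1P1 had 13. MT1P3, MT1XP1 and TESMIN were tested. With MT1F, MT1G and MT1M at or near 0 counts, no change was detectable and no fold was computed for them. These counts do not show that the genes were silent, since the handling of reads that match several places is not given.

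**Figure D1:**
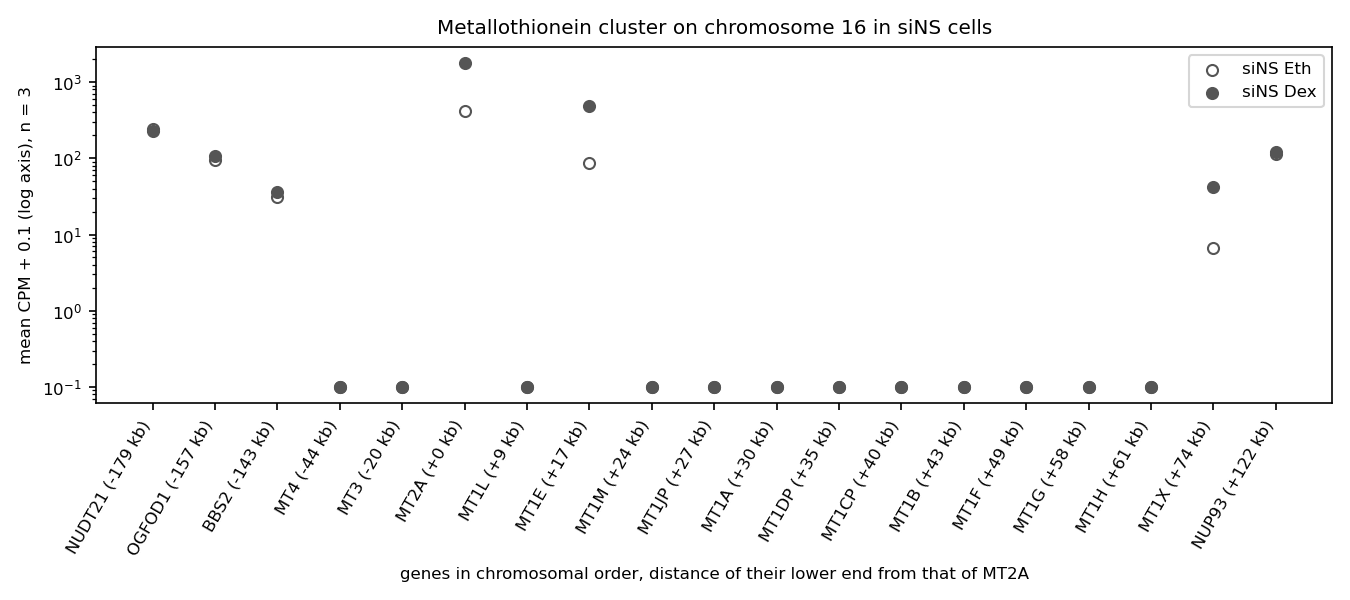
Mean CPM (plus 0.1, log axis, n = 3) of the metallothionein cluster and its nearest listed neighbours in chromosomal order in siNS cells, with open circles for Eth and filled circles for Dex; at the bottom both circles coincide at 0 counts. MT2A, MT1E and MT1X were the metallothioneins with counts above the floor, and their Dex circles lie above their Eth circles, while those of NUDT21, OGFOD1, BBS2 and NUP93 nearly coincide.

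Short and near-identical exons bear on these counts. Of the 50-base windows of the canonical exons, 79.3% of MT1E were unique in hg38, against 85.4% of MT2A, 89.9% of MT1X and 100% of SLC30A1. Of the MT1E windows, 98 had a copy within the span of the MT1M gene. The windows of the canonical MT1M exons had copies in MT1JP and none in MT1E. At 75 bases the unique share was 86.8% for MT1E and 100% for MT2A and MT1X. Windows across exon junctions were not searched. For the members that did not pass the filter, 100% of the 50-base windows of MT1F, 87.8% of those of MT1G and 85.7% of those of MT1M were unique. Whether reads of these genes were lost in mapping or counting was not tested. The read length is not given in the sources used here.

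Dex raised the metallothioneins in siNS cells. MT2A, MT1E and MT1X, all carriers of zinc and copper, rose between 4.29-fold and 6.35-fold, and SLC30A1 and MTF1 were not called. MT2A stood at 435.9, 394.7 and 407.5 CPM in the siNS Eth libraries and at 1865, 1678 and 1767 CPM in the siNS Dex libraries. MT1E stood at 94.8, 84.7 and 81.4 CPM with Eth and at 519.0, 483.5 and 460.2 CPM with Dex. MT1X was the least abundant, at 6.51, 5.91 and 7.25 CPM with Eth and 40.6, 35.8 and 48.2 CPM with Dex. For these genes every Dex library was above every Eth library. The log2 fold change was 2.10 for MT2A (standard error, SE, 0.0759, adjusted p = 5.75e-17), 2.49 for MT1E (SE 0.0773, adjusted p = 3.5e-18) and 2.67 for MT1X (SE 0.161, adjusted p = 2.59e-12), by edgeR's quasi-likelihood test over all genes tested. Called at an adjusted p under 0.01 and a fold of at least 1.5, 3 of the 5 tested members rose and 0 fell, beside 2.71% of all genes tested (1.65% higher and 1.06% lower). The median log2 fold change of the 5 members was 2.10, and that of all genes tested was 0.00364. Among increases, MT1X ranked 32, MT1E 36 and MT2A 52 of the 15298 genes by log2 fold change.

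**Figure D2:**
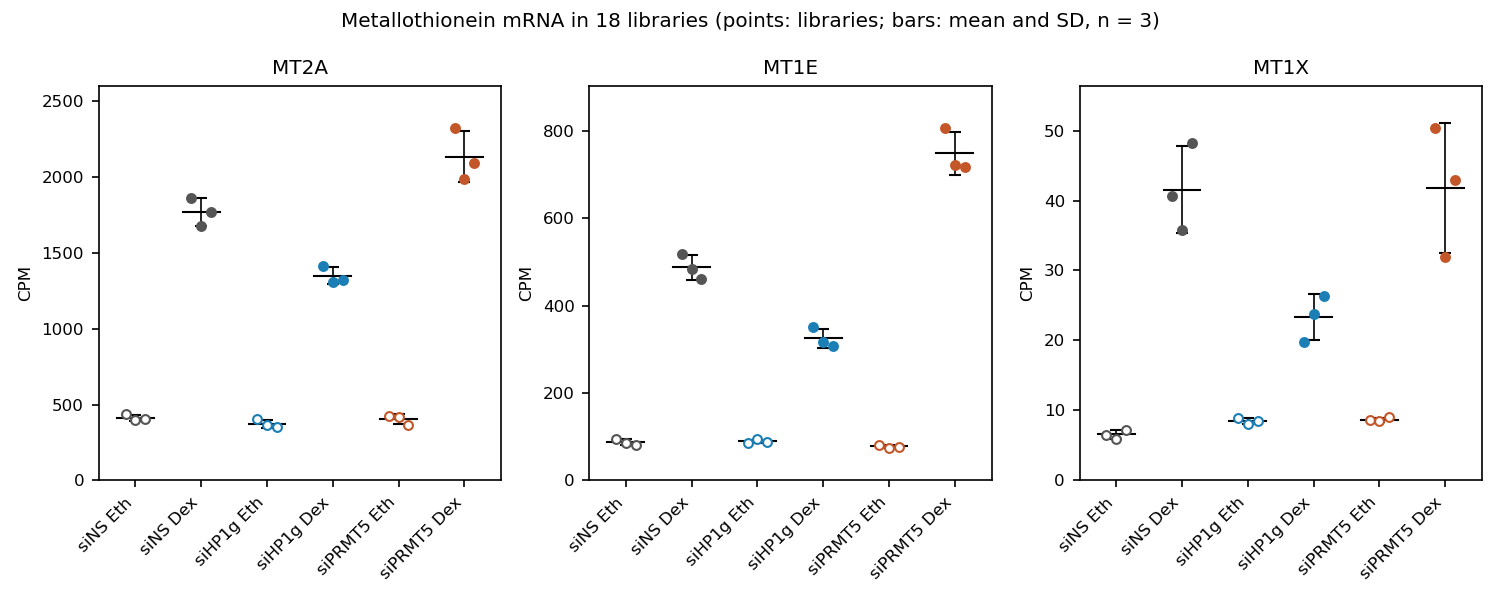
CPM of MT2A, MT1E and MT1X in the 18 libraries by siRNA and treatment (linear axes from 0), with each point a library, open for Eth and filled for Dex, and bars for the mean and SD (n = 3). In each gene the 9 Dex libraries lie above the 9 Eth libraries, and the siHP1g Dex libraries lie below the siNS Dex libraries; for MT2A and MT1E the siPRMT5 Dex libraries are the highest.

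As a share of the library, the MT2A, MT1E and MT1X rows together held 0.0497% of the counts in siNS Eth and 0.224% in siNS Dex. MT2A moved from rank 313 to 384 by count among the symbols in the siNS Eth libraries to rank 14 to 24 with Dex, and to rank 7 to 16 in the siPRMT5 Dex libraries. In siHP1g Dex it ranked 20 to 28.

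SLC30A1 and MTF1 did not move with Dex in siNS cells beyond the threshold. SLC30A1, which exports zinc across the plasma membrane, stood at 45.9, 36.4 and 43.3 CPM with Eth and 46.7, 38.7 and 37.7 CPM with Dex, and these libraries overlap. Its log2 fold change was -0.03 (95% interval -0.23 to 0.18, adjusted p = 0.92). MTF1 stood at 37.0, 38.9 and 37.7 CPM with Eth and 45.3, 44 and 39.4 CPM with Dex. The MTF1 groups do not overlap, but its log2 fold change of 0.18 (SE 0.0874, adjusted p = 0.224) missed the threshold.

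The Dex response was present in depleted cells too. In siHP1g cells, MT2A was at 373.6 ± 26.9 CPM with Eth and 1349 ± 56.3 CPM with Dex, MT1E at 89.5 ± 3.90 and 325.1 ± 22.2 CPM, and MT1X at 8.47 ± 0.432 and 23.3 ± 3.31 CPM. The log2 fold changes were 1.85, 1.86 and 1.46 in that order, and 3 of the 5 tested members rose, beside 1.67% of all genes called (1.01% higher and 0.660% lower). In siPRMT5 cells, MT2A went from 404.4 ± 32.4 to 2136 ± 171 CPM, MT1E from 77.9 ± 3.70 to 749.5 ± 49.5 CPM and MT1X from 8.68 ± 0.285 to 41.7 ± 9.29 CPM. There the log2 fold changes were 2.4, 3.26 and 2.26, and again 3 of the 5 rose, beside 5.44% of all genes called (2.69% higher and 2.75% lower). In both depleted settings the Dex libraries of MT2A, MT1E and MT1X lay above the Eth libraries. SLC30A1 in siPRMT5 cells stood at 66.2, 58.6 and 74.4 CPM with Eth and 78.3, 83.1 and 81.3 CPM with Dex, with a log2 fold change of 0.28 (SE 0.0947, adjusted p = 0.0414), which missed both the limit on p and that on fold. In siHP1g cells the log2 fold change of SLC30A1 was 0.13 (adjusted p = 0.616), and that of MTF1 was -0.11 (adjusted p = 0.568). MTF1 in siPRMT5 cells had a log2 fold change of 0.09 (adjusted p = 0.539).

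An interaction term then tested whether the size of the response differed with the siRNA (calls at an adjusted p under 0.05). With HP1γ depletion, MT1E and MT1X responded less. The difference of log2 responses was -0.63 for MT1E (SE 0.105, adjusted p = 0.00357) and -1.21 for MT1X (SE 0.236, adjusted p = 0.0169). For MT2A it was -0.25 (95% interval -0.46 to -0.04, adjusted p = 0.219), which missed the threshold, and the summed counts of the chromosome 16 metallothioneins, tested as 1 feature, gave -0.34 (adjusted p = 0.108). Thus 2 of the 5 tested members were lower and 0 higher, beside 0.399% of all genes called (0.281% lower and 0.118% higher). The MT1X call was lost (adjusted p between 0.0575 and 0.0724) when siNS Eth replicate 1, siHP1g Eth replicate 1, siHP1g Eth replicate 3 or siNS Dex replicate 3 was left out, with differences between -1.20 and -1.08.

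With PRMT5 depletion, MT1E responded more, by 0.78 on the log2 scale (SE 0.106, adjusted p = 8.91e-05). It was the 1 member called of 5, beside 3.80% of all genes called (1.58% higher and 2.23% lower). MT2A had a difference of 0.30 (95% interval 0.09 to 0.51, adjusted p = 0.102), and MT1X had one of -0.41 (95% interval -0.89 to 0.07, adjusted p = 0.356). MT1X is thus the metallothionein whose estimate was below 0, with an interval that spans 0. Summed as 1 feature, the chromosome 16 metallothioneins gave a difference of 0.39 (adjusted p = 0.0226). The SLC30A1 difference was 0.31 (adjusted p = 0.221) and that of MTF1 was -0.09 (adjusted p = 0.755). PRMT5, the target of the siRNA, had a difference of 0.57 itself (adjusted p = 0.0297), and its part in these values was not tested.

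**Figure D3:**
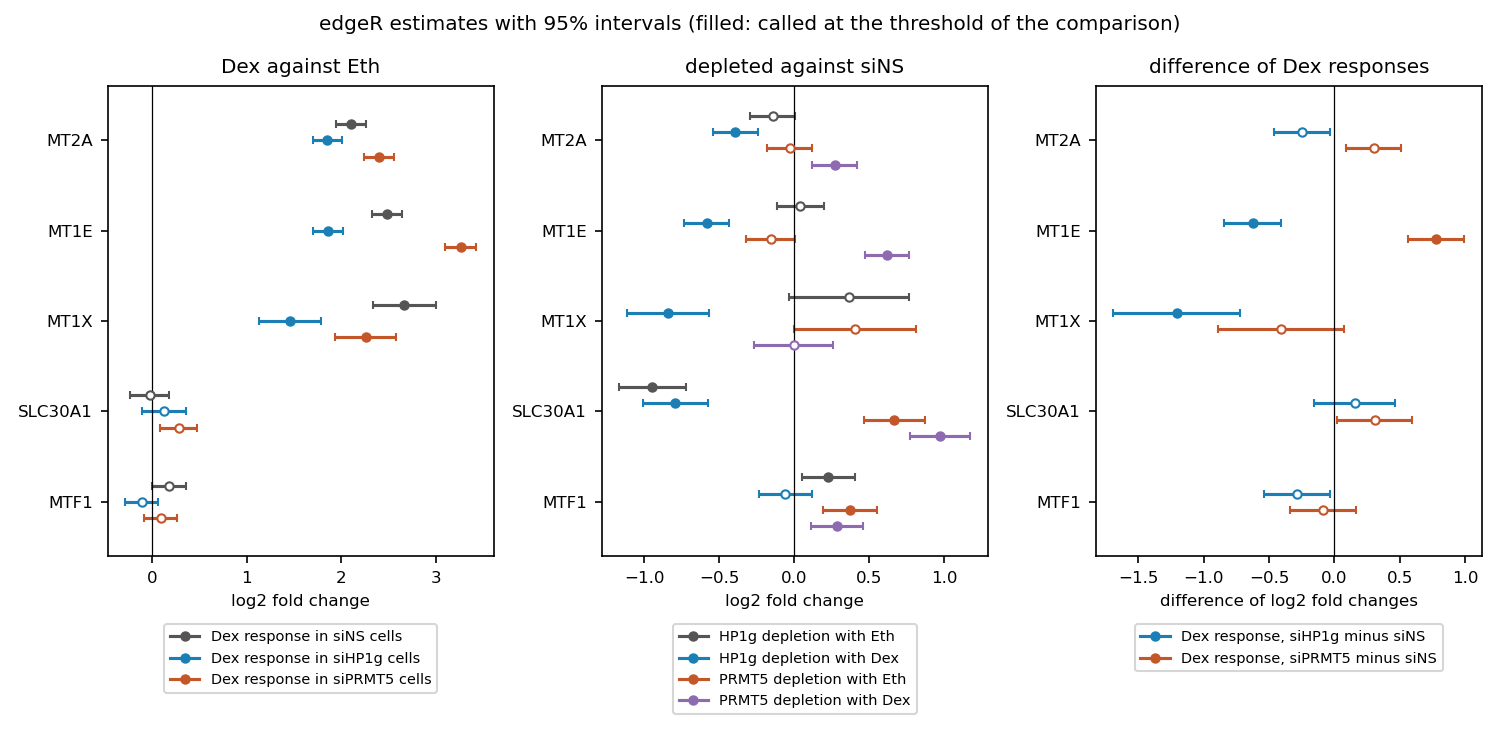
Log2 fold changes of the 5 tested members with 95% intervals from edgeR, for Dex against Eth, for depleted against siNS cells and for the difference of the Dex responses (x axes in log2 units); filled points were called. MT2A, MT1E and MT1X are filled in all Dex responses and SLC30A1 in all depletions, and the difference of responses is filled for MT1E with both siRNAs and for MT1X with siHP1g.

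Depletion was next compared at a fixed treatment, with calls at an adjusted p under 0.05. With Eth, MT2A, MT1E and MT1X were not called for either siRNA. HP1γ depletion with Eth gave log2 fold changes of -0.14 for MT2A (95% interval -0.30 to 0.01), 0.04 for MT1E (-0.12 to 0.20) and 0.37 for MT1X (-0.03 to 0.77). PRMT5 depletion with Eth gave -0.03 for MT2A (-0.18 to 0.12), -0.16 for MT1E (-0.32 to 0.00417) and 0.41 for MT1X (-0.0019 to 0.81). The MT1X libraries of the depleted groups with Eth, between 8.04 and 9 CPM, lay above those of siNS Eth without passing the test.

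With Dex, HP1γ depletion lowered all 3 metallothioneins. MT2A was at 1413, 1309 and 1325 CPM in siHP1g Dex, below each siNS Dex library, with a log2 fold change of -0.39 (SE 0.0726, adjusted p = 0.00024). MT1E was at 350.3, 316.7 and 308.4 CPM, a log2 fold change of -0.58 (SE 0.0716, adjusted p = 1.01e-06). MT1X was at 19.8, 23.8 and 26.4 CPM, a log2 fold change of -0.84 (SE 0.132, adjusted p = 3.4e-05). With SLC30A1, 4 of the 5 tested members fell and 0 rose, beside 24.0% of all genes called (12.3% lower and 11.7% higher). PRMT5 mRNA was itself lower in siHP1g Dex than in siNS Dex (log2 fold change -0.35, adjusted p = 0.00123), and its part in these values was not tested.

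PRMT5 depletion with Dex gave higher MT1E and MT2A. In siPRMT5 Dex, MT1E was at 806.6, 723.3 and 718.6 CPM, above every library of siNS Dex, with a log2 fold change of 0.62 (SE 0.0711, adjusted p = 1.08e-07). MT2A was at 2323, 1988 and 2096 CPM, also above every siNS Dex library, with a smaller log2 fold change of 0.27 (SE 0.0724, adjusted p = 0.00371). MT1X was at 50.3, 31.9 and 43.0 CPM, which overlaps siNS Dex, and its log2 fold change was -0.0035 (95% interval -0.26 to 0.26, adjusted p = 0.984). Including MTF1 and SLC30A1, 4 of the 5 tested members rose and 0 fell, beside 42.4% of all genes called (20.6% higher and 21.9% lower). The comparisons with Dex share the siNS Dex libraries, and NR3C1, which encodes GR, was itself higher in siPRMT5 Dex than in siNS Dex (log2 fold change 0.31, adjusted p = 0.0062), whose part in the result was not tested.

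The make-up of metallothionein mRNA differed between groups. MT1E made up 17.2% ± 0.666 of the counts of MT2A, MT1E and MT1X in siNS Eth and 21.2% ± 0.905 in siNS Dex. In siPRMT5 cells its share was 15.9% ± 1.11 with Eth and 25.6% ± 0.648 with Dex, and in siHP1g cells it was 19.0% ± 1.46 and 19.1% ± 0.534. The highest MT1E share in siNS Dex was 22.0% and the lowest in siPRMT5 Dex was 25.1%, so these groups do not overlap. In siHP1g cells the MT1E shares with Eth and Dex overlap. MT2A, the major species throughout, made up 77.0% ± 0.647 in siNS Dex, 79.5% ± 0.306 in siHP1g Dex and 73.0% ± 0.443 in siPRMT5 Dex. MT1X never exceeded 2.12% in a library.

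SLC30A1 levels separated by siRNA. In siHP1g cells it was at 20.5, 23 and 21.6 CPM with Eth and 25, 22.1 and 24 CPM with Dex. Every one of these libraries was below every siNS library. The log2 fold change against siNS was -0.95 with Eth (SE 0.108, adjusted p = 2.79e-07) and -0.79 with Dex (SE 0.105, adjusted p = 3.38e-06). In siPRMT5 cells SLC30A1 was above every siNS library with either treatment, with log2 fold changes of 0.67 with Eth (SE 0.0992, adjusted p = 5.35e-06) and 0.98 with Dex (SE 0.0973, adjusted p = 9.66e-09). The order of its levels was siPRMT5, siNS and siHP1g with both treatments.

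MTF1, the zinc sensor, moved over a narrower range. It was at 49.1 ± 2.96 CPM in siPRMT5 Eth and 52.3 ± 2.87 CPM in siPRMT5 Dex, against 37.9 ± 0.987 and 42.9 ± 3.08 CPM in siNS cells, with log2 fold changes of 0.37 (SE 0.0873, adjusted p = 0.0011) and 0.29 (SE 0.0848, adjusted p = 0.0075). With the latter, leaving out siNS Dex replicate 3 ended the call (adjusted p = 0.0531). In siHP1g cells it was at 44.5 ± 5.00 CPM with Eth, with a log2 fold change of 0.23 (adjusted p = 0.046), and at 41.2 ± 1.24 CPM with Dex, with -0.06 (adjusted p = 0.671). The HP1γ call with Eth was lost with DESeq2 (adjusted p = 0.0643) and in most fits that left out 1 library. With SLC30A1, the HP1γ depletion with Eth thus had 1 member higher and 1 lower of 5, beside 31.8% of all genes called (16.5% higher and 15.2% lower), and the PRMT5 depletion with Eth had 2 higher of 5, beside 42.1% (20.6% higher and 21.6% lower).

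**Figure D4:**
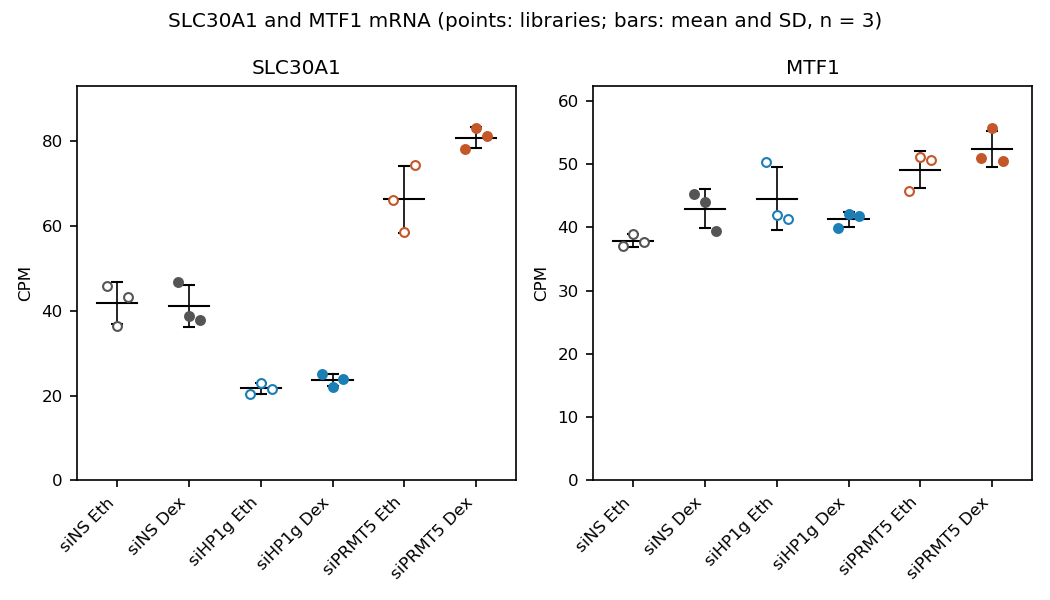
CPM of SLC30A1 and MTF1 in the 18 libraries (linear axes from 0), with each point a library, open for Eth and filled for Dex, and bars for the mean and SD (n = 3). SLC30A1 separates the siRNAs, with the siHP1g libraries at 20.5 to 25 CPM and the siPRMT5 libraries at 58.6 to 83.1 CPM, while MTF1 stays between 37.0 and 55.7 CPM in all libraries.

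Levels of different genes were compared per kilobase of the canonical exons. These sum to 746 bases in 2 exons for MT1E, against 401 for MT2A and 404 for MT1X in 3 exons each. The level of MT1E per kb depends on this choice of transcript. In siNS Eth, MT2A was at 1029 ± 52.6 CPM per kb, MT1E at 117 ± 9.38, MT1X at 16.2 ± 1.66, SLC30A1 at 7.10 ± 0.836 and MTF1 at 4.77 ± 0.124. With Dex the first 3 stood at 4414 ± 233.1, 653.6 ± 39.7 and 102.9 ± 15.5 CPM per kb, SLC30A1 at 6.96 ± 0.839 and MTF1 at 5.41 ± 0.388. Neighbours in the order MT2A, MT1E, MT1X and SLC30A1 did not overlap in any group. SLC30A1 was above MTF1 in siNS and siPRMT5 cells and below it in siHP1g cells, also without overlap. The sources used here do not say whether the library kits covered whole transcripts, on which a level per length depends.

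Rows of processed pseudogenes rose with Dex as well. MT1XP1, a processed pseudogene on chromosome 1 that resembles MT1X, was at 2.59 ± 0.235 CPM in siNS Eth and 14.8 ± 2.13 CPM in siNS Dex, a log2 fold change of 2.51 (SE 0.203, adjusted p = 8.42e-10). In siHP1g Dex it was at 7.31 ± 1.23 CPM, lower than in siNS Dex by edgeR's test (log2 fold change -1.03, adjusted p = 3.81e-05). MT1P3 on chromosome 20 was at 1.66 ± 0.647 and 10.9 ± 0.572 CPM in siNS cells, a log2 fold change of 2.71 (SE 0.246, adjusted p = 7.05e-09), and 18.8 ± 0.294 CPM in siPRMT5 Dex, where it exceeded siNS Dex by 0.79 on the log2 scale (adjusted p = 0.000278). Of 50-base exon windows, MT1XP1 shared 18 with MT1X and MT1P3 shared 19 with MT1E, while at 75 bases 100% of the windows of both pseudogenes were unique. The pseudogenes were compared with the genome and not with spliced mRNA. Likeness to sequence across the exon junctions of MT1X and MT1E was therefore not seen by this search. The share of these counts that came from reads of the genes was not tested. Of the other symbols listed with the metallothioneins, 2 of the 3 tested (MT1P3 and MT1XP1) rose in each Dex response. That was beside 1.65%, 1.01% and 2.69% of all genes higher in siNS, siHP1g and siPRMT5 cells. TESMIN, the other symbol tested, lies on chromosome 11 with 10 canonical exons of 2535 bases and was not called.

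The pattern over the 18 libraries was described by Pearson's r of log2 CPM with MT2A, the most abundant member, over the 11406 genes that averaged 5 CPM or more. MT1E had an r of 0.991 and MT1X one of 0.973, while MTF1 and SLC30A1 had 0.246 and 0.24. Outside the metallothioneins, the genes most like MT2A were CAVIN2 (0.993), KLF9 (0.992), TXNIP (0.991), DNER (0.988) and LOX (0.986). These values are descriptions, since the libraries share 6 groups and the split by Dex dominates them. KLF9, a transcription factor known as a GR target, was at 16.2, 114.5, 15.3, 67.4, 16.7 and 145.8 CPM on average in siNS Eth, siNS Dex, siHP1g Eth, siHP1g Dex, siPRMT5 Eth and siPRMT5 Dex. LOX, a collagen cross-linking oxidase, was at 110.8, 110.4 and 119.8 CPM in the Dex groups in the same order, and was not called between siRNAs with Dex.

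Known GR targets gave a frame for the differences. TSC22D3, which encodes GILZ, FKBP5, a chaperone of GR, and PER1, a clock gene, rose with Dex in siNS cells by 3.64, 2.15 and 2.54 on the log2 scale. With siHP1g the response differed by -1.003 for TSC22D3 (adjusted p = 0.00104) and -0.75 for PER1 (adjusted p = 0.0195), and by -0.44 for FKBP5 (adjusted p = 0.0588), which missed the threshold. With siPRMT5 it differed by 0.84 for FKBP5 (adjusted p = 2.31e-05), -0.40 for TSC22D3 (adjusted p = 0.125) and -0.20 for PER1 (adjusted p = 0.491). By level with Dex, 3 of the 3 were called higher in siPRMT5 than in siNS cells, beside 20.6% of all genes. TSC22D3 was at 405.3 against 236.0 CPM, FKBP5 at 717.3 against 502.8 and PER1 at 99.4 against 78.5. With Eth, TSC22D3 was at 42.9 CPM in siPRMT5 and 19.0 CPM in siNS cells, PER1 at 19.6 and 13.4, and FKBP5 at 90.2 and 113.1.

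Genes beside the cluster were listed as well. Of 7 neighbours, 5 were tested and 0 were called in any Dex response, beside 2.71%, 1.67% and 5.44% of all genes in siNS, siHP1g and siPRMT5 cells, a count near that background. Their median log2 fold change in siNS cells was 0.13. In siPRMT5 cells, BBS2 (0.35, adjusted p = 0.00514) and OGFOD1 (0.25, adjusted p = 0.00486) passed the limit on p but not that on fold. In the depletions with Dex, NUP93 was the 1 neighbour called of 5, at -0.27 with siHP1g (adjusted p = 0.012) and -0.31 with siPRMT5 (adjusted p = 0.00181). That was beside 24.0% and 42.4% of all genes called. With Eth, 1 of the 5 was higher with siHP1g and 3 were lower with siPRMT5, beside 31.8% and 42.1% of all genes called.

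Zinc transport beyond SLC30A1 was read from 9 further SLC30 exporters and the 14 SLC39 importers. Of these, 6 exporters and 10 importers were tested, and 0 were called in any Dex response, near the background of 1.67% to 5.44% of all genes, with median log2 fold changes in siNS cells of -0.14 and 0.07. SLC39A7 was at 0 counts in all libraries. Since the handling of reads that match several places is not given, this does not show that the gene was silent. In PRMT5 depletion with Dex, where 42.4% of all genes were called, 1 exporter rose (SLC30A5, 0.34, adjusted p = 0.00235) and 3 fell. These were SLC30A6 (-0.79, adjusted p = 1.17e-06), SLC30A4 (-0.57, adjusted p = 0.00127) and SLC30A9 (-0.54, adjusted p = 4.74e-06). Of the importers 2 fell, SLC39A4 (-0.94, adjusted p = 8.69e-07) and SLC39A13 (-0.92, adjusted p = 4.42e-09), and 0 rose. In HP1γ depletion with Dex, beside 24.0% of all genes called, SLC30A6 (-0.34, adjusted p = 0.0161), SLC39A10 (-0.51, adjusted p = 0.00027) and SLC39A4 (-0.40, adjusted p = 0.0149) fell, and 0 rose.

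Copper genes were listed because metallothioneins also bind copper. All 9 were tested and 0 were called in any Dex response, again near the background of 1.67% to 5.44%. In the depletions, 24.0% to 42.4% of all genes were called. SLC31A1, the main copper importer at the plasma membrane, fell in siPRMT5 cells from 78.2 ± 5.02 to 22.2 ± 0.208 CPM with Eth and from 77.0 ± 3.36 to 18.9 ± 2.19 CPM with Dex, log2 fold changes of -1.81 (adjusted p = 1.61e-14) and -2.03 (adjusted p = 1.73e-15). It also fell in siHP1g cells, by 0.57 on the log2 scale with Dex (adjusted p = 5.85e-06). SLC31A2, a related transporter, rose with PRMT5 depletion and Dex by 0.87 (adjusted p = 8.87e-07), and the copper chaperone ATOX1 fell by 0.43 (adjusted p = 0.000282) as did SOD1 by 0.21 (adjusted p = 0.0399). In HP1γ depletion with Dex, COX17, a chaperone for cytochrome oxidase, rose by 0.41 (adjusted p = 0.0108), and SLC31A1, ATOX1 (-0.33) and SOD1 (-0.26) fell.

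**Figure D5:**
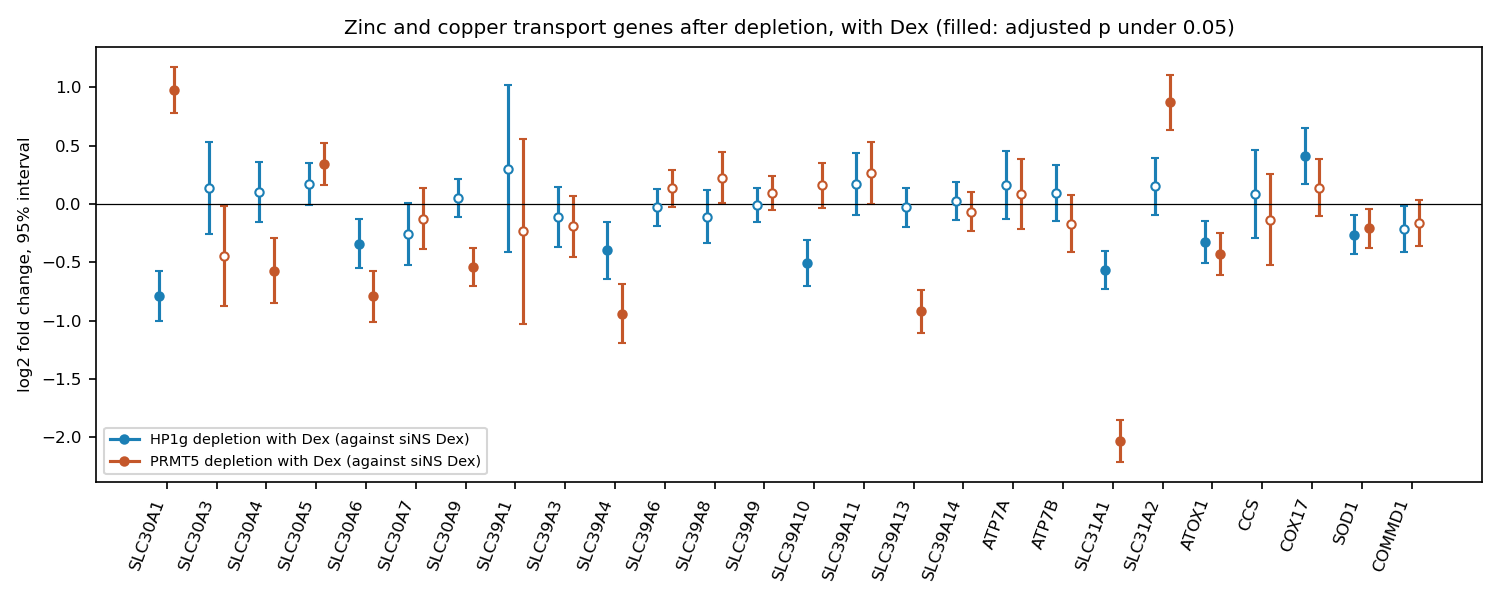
Log2 fold changes with 95% intervals of SLC30A1, other zinc exporters (SLC30A), zinc importers (SLC39A) and copper genes in siHP1g Dex and siPRMT5 Dex, each against the same siNS Dex libraries; filled points had an adjusted p under 0.05. SLC30A1 is the gene with filled points on opposite sides of 0 (-0.79 and 0.98), and SLC31A1 has the lowest value, -2.03 in siPRMT5 Dex.

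Of 10 genes of metal and oxidative stress, 8 were tested. In the Dex response of siNS cells, HMOX1 was the 1 called of 8, beside 2.71% of all genes called (1.06% lower). It fell from 44.4 ± 6.39 to 26.5 ± 1.13 CPM, a log2 fold change of -0.75 (adjusted p = 1.65e-05). HMOX1 encodes heme oxygenase, which heavy metals and oxidants are known to raise. It also fell with Dex in siHP1g cells (-0.90, adjusted p = 5.69e-07) and in siPRMT5 cells (-1.20, adjusted p = 5.23e-09). GCLC, the catalytic subunit for glutathione synthesis, rose with Dex in siHP1g cells (0.66, adjusted p = 1.04e-06) and in siPRMT5 cells (1.25, adjusted p = 1.64e-12). In siNS cells its log2 fold change was 0.54 (adjusted p = 1.67e-05), which passed the limit on p and missed that on fold (1.45-fold). SLC7A11, a cystine importer, fell with Dex in siPRMT5 cells (-0.68, adjusted p = 0.000429). Thus 1 of the 8 rose and 1 fell in siHP1g cells, beside 1.67% of all genes called. In siPRMT5 cells 1 rose and 2 fell, beside 5.44% of all genes called.

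In PRMT5 depletion with Dex, 1 of the 8 stress genes rose and 4 fell, beside 20.6% of all genes higher and 21.9% lower. GCLC rose by 1.08 (adjusted p = 1.21e-11), and SLC7A11 (-1.47, adjusted p = 1.14e-09), the heat shock gene DNAJB1 (-1.17, adjusted p = 1.92e-12), the thioredoxin reductase TXNRD1 (-0.63, adjusted p = 1.57e-09) and HMOX1 (-0.37, adjusted p = 0.0115) fell. In HP1γ depletion with Dex 3 rose and 2 fell, beside 11.7% of all genes higher and 12.3% lower. Those that rose were GCLM (0.45, adjusted p = 0.000497), HMOX1 (0.45, adjusted p = 0.0034) and GCLC (0.27, adjusted p = 0.0105), and SLC7A11 (-0.54, adjusted p = 0.00203) and TXNRD1 (-0.18, adjusted p = 0.0177) fell. HSPA1A was at 0 counts in all libraries and HSPA1B had 3 counts in all. These counts do not show that the genes were silent, since the handling of reads that match several places is not given.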

How the data were processed

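The authors prepared libraries from total RNA with Lexogen kits, aligned the reads to hg38 with Bowtie2 2.4.2 and counted them with HTSeq 0.9.1 (the submitters' processing notes also name DESeq2 2.11.40.7). They deposited, for each of 18 libraries, whole-number counts per gene symbol without normalization. Their own table of log2 fold changes and adjusted p-values was not used. Bowtie2 does not split reads at introns, so reads over the junctions of the short metallothionein exons can be lost, and the handling of reads that match several copies is not given in the sources used here.

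Groups were taken from the sample titles. Genes were filtered with filterByExpr, scaled by TMM and fitted in 1 edgeR 4.0.16 quasi-likelihood model (R 4.3.3) over all 18 libraries, with 1 mean per group and 12 residual degrees of freedom. p-values were adjusted by Benjamini-Hochberg over the 15298 genes tested. The Dex responses were called at an adjusted p under 0.01 and a fold of at least 1.5, and depletions and interactions at an adjusted p under 0.05. Standard errors were taken from the fold change and the F statistic. The fit was tested on simulated counts. Replicates of a group differed by more than sampling noise (chi-square per degree of freedom 2.01 to 11.3), and intervals on counts cover counting error only.

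Members and gene lists were chosen with earlier results of these data known. Named were the members, genes of each list called in the Dex response of siNS cells, up to 5 genes a list called in the depletions, the siRNA targets, 3 known Dex targets and the 5 genes most like MT2A; BBS2, OGFOD1, NUP93, GCLC and SLC7A11 in the Dex responses or among neighbours, NR3C1 and the genes at 0 were named after their values were seen. A gene of the neighbour list is withheld and not reported here. Annotation is from GENCODE 44, in which 37471 of the 60642 symbols were found. Alternatives were DESeq2 1.42.0, other size factors, filters and libraries, a replicate block, summed metallothionein rows, a fold of 2, each library left out and, added after seeing the data, pseudogene rows added to their genes.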

Additional observations from a re-analysis of the deposited data

Results flagged for a closer look

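Between siRNAs, 3 Dex responses of members differed by the interaction test. With siHP1g these were 2 of the 5 tested members, beside 0.399% of all genes called. With siPRMT5 it was 1 of the 5, beside 3.80% of all genes called. MT1E responded less in siHP1g than in siNS cells (difference of log2 fold changes -0.63, adjusted p = 0.00357 by edgeR). By level with Dex, all 3 siHP1g libraries were below all 3 siNS libraries. MT1X also responded less (-1.21, adjusted p = 0.0169), a call kept in 14 of 18 fits that left out 1 library. MT1E responded more in siPRMT5 than in siNS cells (0.78, adjusted p = 8.91e-05). By level with Dex, all 3 siPRMT5 libraries were above all 3 siNS libraries. Summed as 1 feature, the chromosome 16 metallothioneins missed the threshold with siHP1g (-0.34, adjusted p = 0.108) and passed it with siPRMT5 (0.39, adjusted p = 0.0226).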

How the results depend on the processing

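The 5 tested members gave 45 values over the 9 comparisons. Of 392 values under the alternatives other than leaving out a library, 381 kept their direction and side of the threshold, as did 775 of 810 with 1 library left out. The 3 metallothionein increases were called in each Dex response under every alternative that tested these genes singly. With the rows summed, the 1 sum was called in each Dex response. The SLC30A1 calls of the depletions were kept under every alternative run.

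The count of members called in HP1γ depletion with Eth was 2 and became 1 with DESeq2, without a filter on low counts and with the libraries of the groups compared alone, since MTF1 was lost (adjusted p = 0.0643, 0.112 and 0.062). It ranged from 1 to 2 with 1 library left out, and was 1 for each library except siHP1g Dex replicate 1, siHP1g Eth replicate 2 and siHP1g Eth replicate 3. The lower Dex responses in siHP1g cells numbered 2, and 1 with DESeq2, where MT1X had no adjusted p because its base mean of 218.4 was under the filter of 260.3 (unadjusted p = 1.59e-06), 0 with the metallothionein rows summed, and 1 to 2 with 1 library left out. For siPRMT5 the count was 1, and 3 with the rows summed, where the 1 sum stands for 3 genes. PRMT5 depletion with Dex had 3 to 4 members called with 1 library left out.

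The replicate numbers did not meet the rule for pairing, which asks every same-numbered correlation of deviations to exceed 0.1, in any of the 7 comparisons (-0.00722 to 0.0468 in siNS cells). In PRMT5 depletion with Dex the same-numbered values (0.0137 to 0.111) were all above the others (-0.0954 to 0.00156), a hint from the data, and in the Dex response of siPRMT5 cells they ran from -0.108 to 0.22. With the replicate number as a block, MT2A joined MT1E in the siPRMT5 interaction (2 members; MT2A 0.30, adjusted p = 0.044), and the block changed no other member's call.

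Values near 0 changed sign without being called. MT1X in PRMT5 depletion with Dex was -0.0035 and became 0.0135 with DESeq2, 0.00936 with DESeq2's size factors, 0.0127 with library size only, 0.00126 with the replicate block and 0.0106 with the pseudogene rows added, and ranged from -0.16 to 0.17 with 1 library left out. MTF1 in HP1γ depletion with Dex became 0.0231 with library size only. With 1 library left out, SLC30A1 in the Dex response of siNS cells ranged from -0.134 to 0.0416, MT1E in HP1γ depletion with Eth from -0.0204 to 0.10 and MT2A in PRMT5 depletion with Eth from -0.0714 to 0.0348. MT1X in PRMT5 depletion with Eth was called with the groups compared alone (0.40, adjusted p = 0.0465).

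Over all genes, a fold of 2 left 194, 106 and 373 Dex calls in siNS, siHP1g and siPRMT5 cells (414, 255 and 832 at 1.5). The 61 calls of the siHP1g interaction became 327 with DESeq2, 374 without a filter, 94 with the block and 20 to 186 with 1 library left out, and the 582 of the siPRMT5 interaction 319 to 897. The causes were not tested. With library size only, the share of higher calls went from 52.1% to 63.8% in HP1γ depletion with Eth and from 48.7% to 69.2% with Dex. Below about 3 counts a library, no change in MT1F, MT1G or MT1M could be seen.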
